A study of Saccharomyces cerevisiae with 21 samples.

Results

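The GFP coding region of the NGD-CGA reporter was examined upstream of, and well away from, its ribosome stall. The reporter (*GFP-2A-FLAG-HIS3*) carries 12 CGA codons, decoded slowly in yeast, inside *HIS3*. The region was taken as nt 1 to 613 of the reporter sequence in the deposited tables, counted from the first nt of the start codon, which is 38.7% of its 1586 nt and holds 204 complete codons of an open reading frame of 510. The CGA tract lies at nt 1111 to 1146, so 497 nt separate it from the end of the region. Ribosome-protected fragments (RPFs) on these codons were read in 15 monosome libraries of 8 *Saccharomyces cerevisiae* strains and in 2 disome libraries, from pairs of collided ribosomes.

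All 8 strains lacked *SKI2*, the helicase that feeds mRNA to the exosome for decay from the 3′ end. They were *ski2Δ*, *slh1Δ ski2Δ*, *dom34Δ ski2Δ*, *slh1Δ dom34Δ ski2Δ*, *cue2Δ dom34Δ ski2Δ*, *cue2Δ slh1Δ dom34Δ ski2Δ*, *hel2Δ dom34Δ ski2Δ* and *hel2Δ slh1Δ dom34Δ ski2Δ*, each with 2 monosome libraries except *ski2Δ*, which had 1. *DOM34* encodes a factor that rescues ribosomes with an empty A site, *CUE2* an endonuclease of No Go Decay, *HEL2* a ubiquitin ligase that marks collided ribosomes, and *SLH1* a helicase that acts on the ribosomes so marked. The libraries came in 2 deposited tables, called here the first and the second. A strain's libraries were 1 from each, and *ski2Δ* was in the first table alone. Nothing in the labels said that the libraries of a strain came from separate cultures, so the p-values measure only the spread between these libraries, which may be technical.

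Ribosomes move along a coding sequence one codon at a time, and the time spent at each codon sets how often a footprint is found there. A ribosome that waits with an empty A site protects about 21 nt, whereas one with a tRNA in the A site that has not yet translocated protects about 28 nt. A footprint of about 16 nt comes from a ribosome that has run to the 3′ end of a broken mRNA. On an undisturbed stretch such as GFP the 21 and 28 nt RPFs describe ordinary elongation. The 16 nt RPFs there are read as truncated mRNAs far from the stall, an origin that was not tested.

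4 stretches carried most of the features described below. They are shown 5′ to 3′ as DNA, from the deposited reporter sequence, with the codons named in the results in capitals. The first is the start, where codons 1, 2 and 4 are marked. The next 2 hold the highest peaks of 21 and 28 nt RPFs (codons 54, 57, 63 and 64, then codons 80, 83, 89, 90, 93 and 94), and the last holds a 28 nt peak at codon 118.
Codons 1 to 20 (nt 1 to 60): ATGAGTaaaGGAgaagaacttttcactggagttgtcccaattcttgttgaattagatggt
Codons 52 to 70 (nt 154 to 210): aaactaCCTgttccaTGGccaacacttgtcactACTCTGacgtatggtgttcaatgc
Codons 78 to 96 (nt 232 to 288): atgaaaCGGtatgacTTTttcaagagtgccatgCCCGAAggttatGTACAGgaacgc
Codons 112 to 124 (nt 334 to 372): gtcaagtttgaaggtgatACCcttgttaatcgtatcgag

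A search of the translated region for serine or threonine followed by tyrosine and glycine matched codons 38 to 40 and codons 65 to 67. The latter 3 residues are those that form the GFP chromophore, and they follow directly on the highest peaks.

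Monosome libraries held between 1261876 and 15416759 reads (median 10636068), and between 1338 and 29858 of these were 21 or 28 nt RPFs with their A site in GFP. Each value was deposited in rpm, in which reads are scaled by library size. A count of 3 reads, the limit that a count of 0 allows, corresponded to 0.195 to 2.38 rpm, counting error only. The 2 shallowest libraries were the first-table libraries of *cue2Δ slh1Δ dom34Δ ski2Δ* (1261876 reads) and of *hel2Δ slh1Δ dom34Δ ski2Δ* (3179018 reads). Reads of 20 and 27 nt from GFP had no second match in the R64 yeast genome (0 of 594 and 0 of 587 possible reads), while 36 of 599 possible reads of 15 nt (6.01%), the shortest in the 16 nt class, had one.

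Ribosome occupancy along GFP was far from even, and its shape was shared by the libraries. Each codon's rpm was divided by the library's mean rpm per codon at codons 11 to 204, so that 1 is the average codon. For 21 and 28 nt RPFs together, the occupancy was 0.624 ± 0.131 (SD, n = 15) at codons 11 to 20 and between 0.322 and 0.400 at codons 21 to 50. It then reached 1.63 ± 0.276 at codons 51 to 60 and 2.91 ± 0.360 at codons 61 to 70, and lay between 1.23 and 1.99 in the 5 blocks of 10 codons up to codon 120. Codons 131 to 160 lay between 0.385 and 0.495, and codons 171 to 204 between 0.821 and 0.935.

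**Figure D1:**
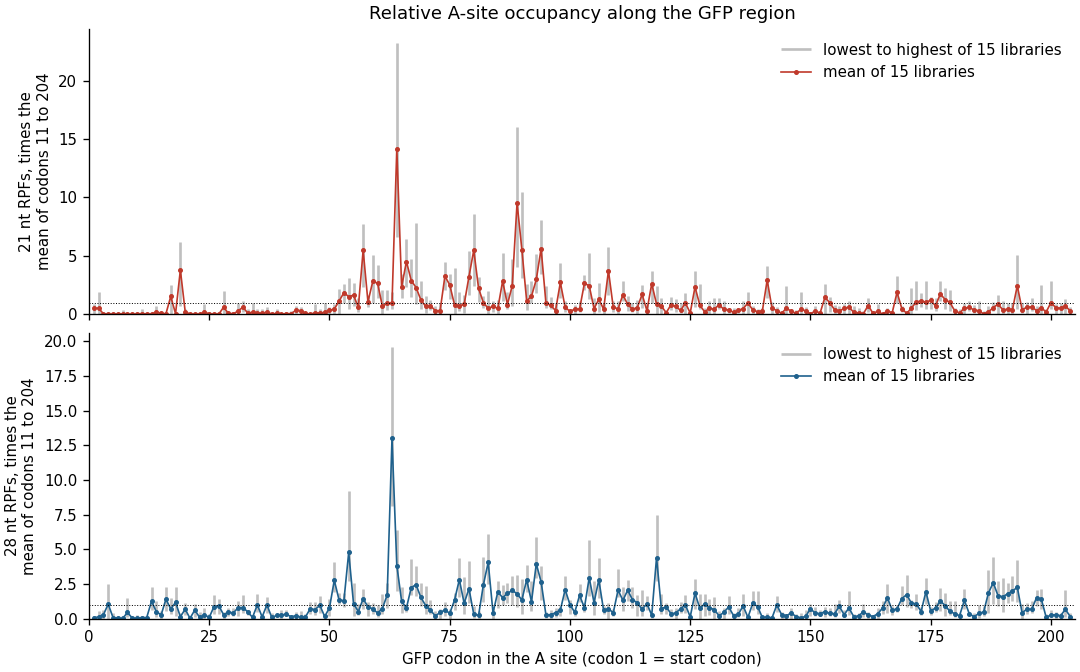
Relative occupancy of each GFP codon in 21 nt RPFs and in 28 nt RPFs, as the mean (points) and the lowest to highest value (grey bars) of 15 monosome libraries, where 1 is the mean of codons 11 to 204 in a library. The tallest 21 nt peak stands at codon 64 (14.2) and the tallest 28 nt peak at codon 63 (13.0).

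The 21 nt RPFs, from ribosomes waiting for a tRNA, were the more concentrated. The single highest codon of codons 11 to 204 held 7.31% ± 1.86 (SD, n = 15) of them, the 5 highest held 20.8% ± 3.95 and the 10 highest 31.5% ± 4.43. For 28 nt RPFs these shares were 6.70% ± 1.48, 15.6% ± 2.64 and 23.4% ± 2.98. The median codon had 0.505 of the mean in 21 nt RPFs and 0.711 in 28 nt RPFs. Codons 51 to 100 alone held 57% ± 4.46 of the region's 21 nt RPFs and 44.2% ± 4.37 of its 28 nt RPFs, and codons 1 to 50 held 5.95% ± 1.49 and 11% ± 2.19.

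Codon 64, a CTG for leucine just upstream of the chromophore codons, was the strongest 21 nt site. Its level was 10.9 rpm in the lowest library, 28.9 rpm in the median one and 85.5 rpm in the highest, and its relative occupancy was 14.2 ± 3.61 (SD, n = 15; range 6.62 to 23.3). It ranked first in 13 of 15 libraries and no lower than the second in the others. The next 4 were codon 89, CCC for proline, at 9.53 ± 3.56, codon 94, CAG for glutamine, at 5.63 ± 1.29, codon 90, GAA for glutamate, at 5.54 ± 1.83, and codon 57, TGG for tryptophan, at 5.49 ± 1.42. Codon 80, CGG for arginine, came next and was level with codon 57 at this rounding. The codons after the first overlapped each other in range, so their order below codon 64 does not stand out from the spread between libraries.

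Codon 63, an ACT for threonine directly upstream of the 21 nt peak, was the strongest 28 nt site. It ranked first in 15 of 15 libraries, at 28.2 rpm in the lowest, 62.9 rpm in the median and 167 rpm in the highest, and its relative occupancy was 13.0 ± 2.88 (range 8.13 to 19.6). The same codon was ordinary in 21 nt RPFs, at 0.961 ± 0.429, while codon 64 was also raised in 28 nt RPFs, at 3.83 ± 1.24. After codon 63 followed codon 54, CCT for proline (4.78 ± 1.69), codon 118, ACC for threonine (4.40 ± 1.28), codon 83, TTT for phenylalanine (4.07 ± 0.856), and codon 93, GTA for valine (3.96 ± 0.779). In these means no codon was among the 5 highest of both fragment sizes. In single libraries, codon 64 was among the 5 highest of 28 nt RPFs in 8 of 15. Since 21 and 28 nt RPFs were assigned to the A site by fixed distances from their 5′ ends, shifts between the classes were examined: the log2 occupancies correlated with r = 0.39 at the same codon (194 codons) and with r = 0.47 when the 21 nt value was taken either 1 or 2 codons downstream (193 and 192 codons), a description of codons that share the same libraries.

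At the other end, codons 21 (GAT, aspartate), 12 (GTC, valine), 38 (ACA, threonine), 23 (AAT, asparagine) and 11 (GTT, valine) had the lowest occupancy of the sum. In 28 nt RPFs they stood at 0.0257 to 0.0915 of the average codon, and in 21 nt RPFs at 0.00932 to 0.0647. Each of them held 0 reads of 21 nt in at least 1 library and 0 reads of 28 nt in at least 1 library, and since a count of 0 allows up to 3 reads, their order was not resolved.

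The kind of codon alone did not set the occupancy of a site. Codons 11 to 204 used 53 kinds of codon, 29 of them at least 3 times, and 0 of them was CGA, the codon of the stall. In 21 nt RPFs the highest means belonged to ACG (threonine, 3 sites) at 2.51 ± 0.501 (SD over 15 libraries), TAT (tyrosine, 6 sites) at 2.10 ± 0.227 and GAA (glutamate, 8 sites) at 1.63 ± 0.230, and the lowest to ATC (isoleucine, 3 sites) at 0.160, TTA (leucine, 3 sites) at 0.262 and CAC (histidine, 4 sites) at 0.298. Sites of the same codon differed widely: the 8 GAA codons ran from 0.165 to 5.54, and the 6 TAT codons from 0.529 to 4.52. The 3 ACG codons, from 1.45 to 3.73, were all above the average codon.

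In 28 nt RPFs, ACT (threonine, 6 sites) led with 2.76 ± 0.537, but this mean rested on codon 63, since the median ACT site stood at 0.628. TTT (phenylalanine) and GGT (glycine) followed at 1.35 and 1.29, with medians over their sites of 0.821 and 0.997. AAT (asparagine, 5 sites) was lowest at 0.225, ahead of CTT (leucine, 6 sites) at 0.348 and CGT (arginine, 3 sites) at 0.425. The 3 CGT sites lay between 0.405 and 0.445, and all 5 AAT sites lay under 0.379. Among amino acids with more than 2 codons, proline was high in both classes, with 1.83 ± 0.393 in 21 nt and 1.56 ± 0.241 in 28 nt RPFs over 9 codons, and asparagine was the lowest in 21 nt RPFs, with 0.308 ± 0.107 over 12 codons.

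The shape was about as alike between strains as within them. Across 194 codons, log2 profiles of 21 nt RPFs correlated with r = 0.69 to 0.89 (median 0.86) between the 2 libraries of a strain in 7 strains and with r = 0.52 to 0.94 (median 0.87) over 98 pairs of libraries from different strains. For 28 nt RPFs the values were 0.78 to 0.92 (median 0.88) and 0.59 to 0.96 (median 0.86). All of these profiles share the same sequence and, in part, the same depth limits.

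Reading frame was plain in 28 nt RPFs, and weaker and more dependent on the library in 21 nt RPFs. Of the 28 nt RPFs at codons 11 to 204, 54.9% in the lowest library, 71.3% in the median and 73.1% in the highest had their assigned A-site nt at the second position of a codon. For 21 nt RPFs the same position held 38.5%, 52.4% and 60.3%, with 29.8% to 45.5% at the third position. Only in the first-table library of *cue2Δ slh1Δ dom34Δ ski2Δ* did the third position hold more than the second (45.5% against 40.3%). The lowest 28 nt values, 54.9% and 55.0%, were those of the 2 shallowest libraries, and the other 13 lay between 65.0% and 73.1%. None of the 4 deletions passed, with mean differences in the 28 nt share of -2.64 percentage points for *SLH1*, -3.75 for *DOM34*, -2.82 for *CUE2* and -2.30 for *HEL2* (exact permutation tests, adjusted p of 0.80 to 0.889).

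Few ribosomes were found on the first codons, and the sizes differed in where. Over codons 1 to 10 the sum of both sizes averaged 0.193 ± 0.132 of the later codons (range 0.0245 to 0.491, n = 15). The 21 nt RPFs were mostly at the start codon, ATG, at 0.504 ± 0.282, and codon 2, AGT for serine, at 0.527 ± 0.555, with 0.0436 or less at each of codons 3 to 10 and no read at codon 9 in any library. The 28 nt RPFs instead peaked at codon 4, GGA for glycine, with 1.05 ± 0.909, and at codon 8, TTC for phenylalanine, with 0.448 ± 0.354. Further in, the 21 nt RPFs reached 1.53 at codon 17 and 3.79 at codon 19.

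**Figure D2:**
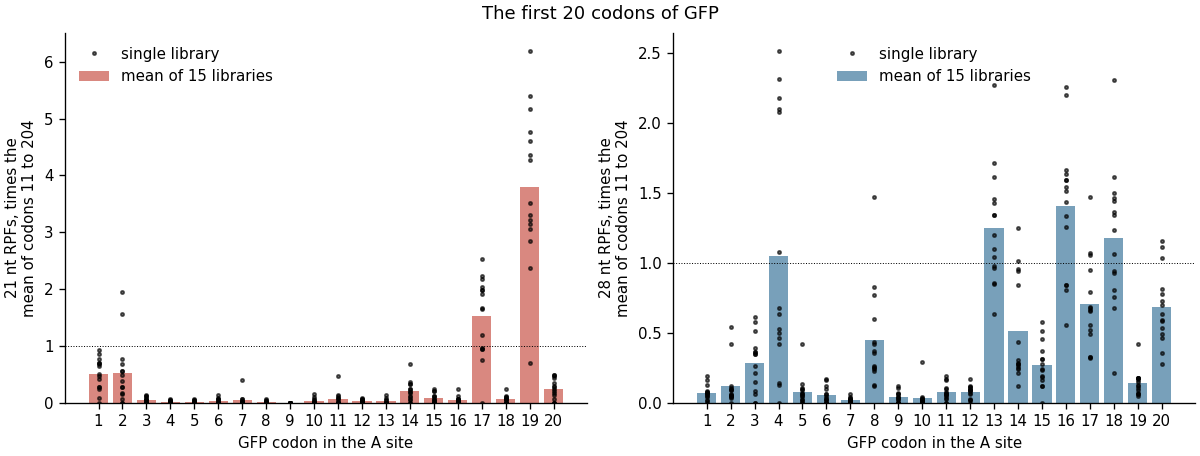
Relative occupancy at codons 1 to 20 in 21 nt RPFs and in 28 nt RPFs, where points are the 15 monosome libraries and bars their means. The 21 nt RPFs stand at codons 1, 2, 17 and 19, and the 28 nt RPFs at codon 4 spread from 0 to 2.51.

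Codon 4 was the early codon that varied most between libraries. Its 28 nt RPFs stood at 0.945 rpm in *ski2Δ* and at 0.564 and 3.11 rpm in *slh1Δ ski2Δ*, against 15.3 and 5.94 rpm in *dom34Δ ski2Δ* and 7.60 and 2.37 rpm in *slh1Δ dom34Δ ski2Δ* (first and second table). In *cue2Δ dom34Δ ski2Δ* it was at 12.5 and 3.95 rpm and in *hel2Δ dom34Δ ski2Δ* at 8.79 and 7.56 rpm. The strains that lacked both *SLH1* and either *CUE2* or *HEL2* were lower, at 1.58 and 2.71 rpm and at 0 and 3.58 rpm. In the 4 strains with the highest values the first-table library was the higher one, and in the 3 others with 2 libraries it was the lower. The part of the table in these levels was not tested.

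The total of 21 and 28 nt RPFs on GFP was lowest in *slh1Δ dom34Δ ski2Δ* and highest in *ski2Δ* and *cue2Δ dom34Δ ski2Δ*. It was scaled to library size and not to reporter mRNA, so it does not give ribosomes per mRNA. On northern blots the paper found less full-length reporter mRNA when *SLH1* was deleted in *ski2Δ*. The part of the mRNA level in these totals was not tested. The sum of 21 and 28 nt RPFs was 2169 rpm in *ski2Δ*, 1644 and 1542 rpm in *dom34Δ ski2Δ*, and 1606 and 2374 rpm in *cue2Δ dom34Δ ski2Δ*. With *SLH1* deleted as well, the corresponding strains had 1240 and 1478 rpm (*slh1Δ ski2Δ*), 906 and 968 rpm (*slh1Δ dom34Δ ski2Δ*), and 1060 and 1166 rpm (*cue2Δ slh1Δ dom34Δ ski2Δ*). In each of these 3 backgrounds the libraries without *SLH1* lay below those with it, with no overlap.

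The *hel2Δ* pair ran the other way. *hel2Δ dom34Δ ski2Δ* had 1104 and 1020 rpm and *hel2Δ slh1Δ dom34Δ ski2Δ* 1248 and 1888 rpm. On the log2 scale the difference with deletion of *SLH1* was -0.68 in *ski2Δ*, -0.77 in *dom34Δ ski2Δ*, -0.81 in *cue2Δ dom34Δ ski2Δ* and 0.53 in *hel2Δ dom34Δ ski2Δ*. Within the first table the 4 differences were -0.81, -0.86, -0.60 and 0.18, and within the second the 3 that could be formed were -0.67, -1.03 and 0.89.

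Over all 4 backgrounds the mean difference of -0.43 did not pass (two-sided exact permutation test within backgrounds, p = 0.0710, Benjamini-Hochberg adjusted p = 0.426 over 24 tests of 4 deletions and 6 measures). The effect of *SLH1* deletion in *hel2Δ dom34Δ ski2Δ* differed from that in the other 3 backgrounds by 1.21 to 1.35, with an exact permutation p = 0.0556 each, the smallest these libraries allow, and an adjusted p = 0.333. Deletion of *DOM34* came with lower totals in both of its backgrounds (-0.45 and -0.53, no overlap, mean -0.49, exact permutation p = 0.0556, again the smallest possible, adjusted p = 0.426). For *CUE2* the mean difference was 0.27 (exact permutation p = 0.111, adjusted p = 0.533). For *HEL2* it was 0.06 (exact permutation p = 1, adjusted p = 1), made of -0.59 in *dom34Δ ski2Δ* and 0.71 where *SLH1* was also absent, in *slh1Δ dom34Δ ski2Δ*. For a single pair of strains an exact permutation test cannot go below p = 0.333.

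As a share of all 21 and 28 nt RPFs on the reporter, GFP held 30.3% in *ski2Δ*, 22.8% and 21.1% in *dom34Δ ski2Δ*, and 5.82% and 6.55% in *slh1Δ dom34Δ ski2Δ*, the lowest of all strains. The remaining libraries lay between 10.5% and 26.8%. These shares also move with the RPFs at the stall, so they do not measure GFP alone.

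**Figure D3:**
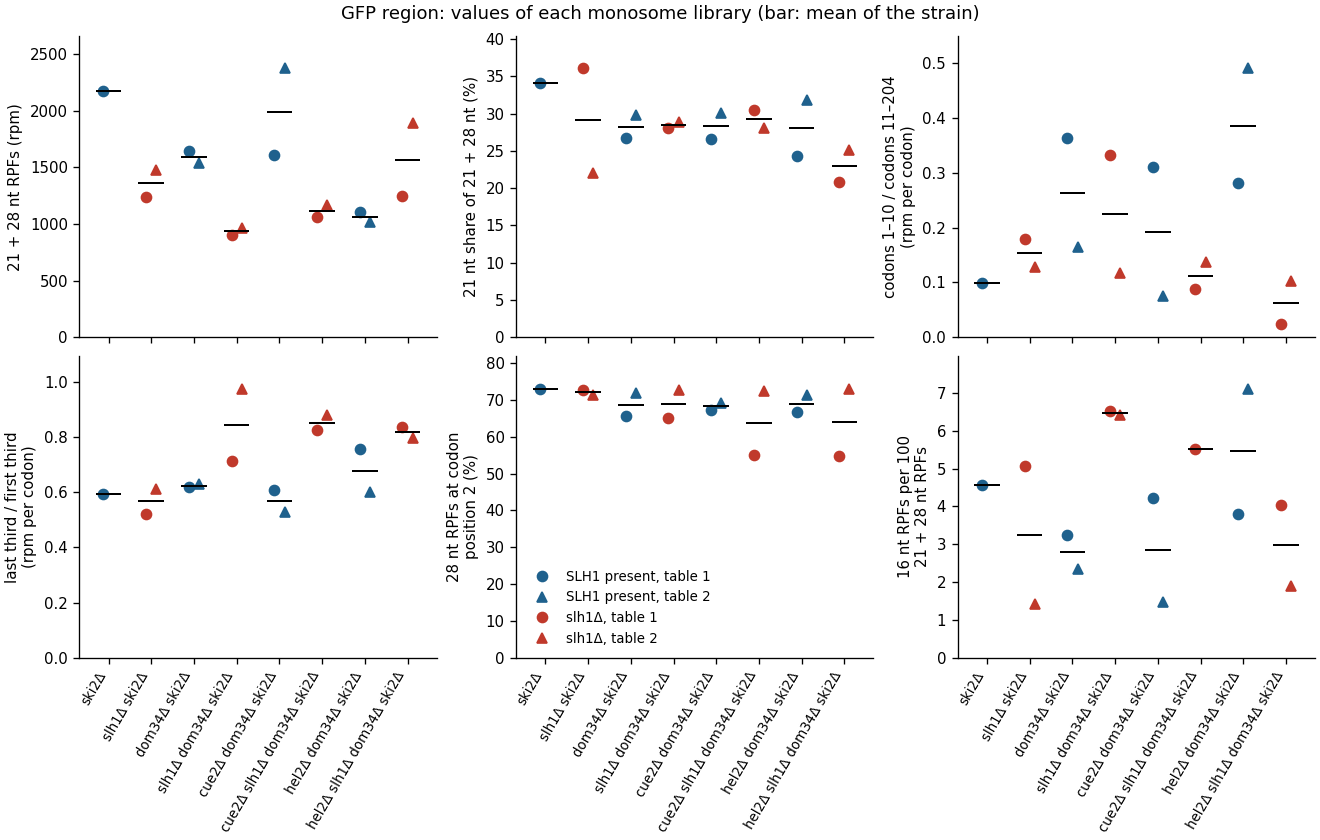
6 values of the GFP region in each monosome library (circles, first deposited table; triangles, second; red, *SLH1* deleted; bars, strain means): rpm of 21 and 28 nt RPFs, share of 21 nt RPFs, occupancy of codons 1 to 10, codons 141 to 204 over codons 11 to 75, 28 nt RPFs in frame and 16 nt RPFs per 100 RPFs. The total was lowest in *slh1Δ dom34Δ ski2Δ*, at 906 and 968 rpm, and none of the 24 tests on these values passed after adjustment.

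The balance of the ribosome states varied between libraries, also between those of 1 strain. The 21 nt RPFs made up 20.8% of the sum in the lowest library, 28.1% in the median and 36.1% in the highest, so that 28 nt RPFs outnumbered them by 1.77 to 3.8 times. The lowest was the first-table library of *hel2Δ slh1Δ dom34Δ ski2Δ* and the highest that of *slh1Δ ski2Δ*, at 36.1% (95% Wilson interval 35.3 to 36.9), whose other library stood at 22.1%. None of the 4 deletions passed, with mean log2 differences of -0.17 for *SLH1*, -0.20 for *DOM34*, 0.03 for *CUE2* and -0.22 for *HEL2* (exact permutation tests, lowest adjusted p = 0.80). For *DOM34*, *CUE2* and *HEL2* the smallest possible exact permutation p was 0.0556, so those tests could not pass and do not show that the strains were alike.

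For the first 10 codons relative to the rest, the values ranged from 0.0245 in the first-table library of *hel2Δ slh1Δ dom34Δ ski2Δ*, which had 5 reads there, to 0.491 in the second-table library of *hel2Δ dom34Δ ski2Δ*. The largest difference within a pair was that of *SLH1* deletion in the *hel2Δ dom34Δ ski2Δ* background, -2.89 on the log2 scale (-3.52 and -2.26 within the tables, no overlap). Its sign was shared by 3 of 4 backgrounds, and the mean of -0.77 did not pass (exact permutation p = 0.196, adjusted p = 0.784). With *DOM34* deleted the mean difference was 0.83 (exact permutation p = 0.333, adjusted p = 0.80).

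Occupancy was lower at codons 141 to 204 than at codons 11 to 75 in 15 of 15 libraries, to different extents. The latter stretch holds the highest block, codons 61 to 70, with a mean of 2.91. Its codons 21 to 30 stood at 0.322, below codons 171 to 180 at 0.935, so occupancy did not fall steadily along the region. The ratio of codons 141 to 204 to codons 11 to 75 was 0.522 in the lowest library, 0.630 in the median and 0.976 in the highest. It was 0.619 and 0.630 in *dom34Δ ski2Δ* against 0.712 and 0.976 in *slh1Δ dom34Δ ski2Δ*, 0.609 and 0.528 in *cue2Δ dom34Δ ski2Δ* against 0.826 and 0.880 with *SLH1* deleted as well, and 0.756 and 0.60 in *hel2Δ dom34Δ ski2Δ* against 0.837 and 0.798. In *ski2Δ*, where *DOM34* was present, the values with and without *SLH1* were 0.593 and 0.522 to 0.611 and overlapped. The mean log2 difference over the 4 backgrounds was 0.30 (exact permutation p = 0.0216, adjusted p = 0.426), and that of *DOM34* deletion was 0.32 (exact permutation p = 0.0556, the smallest possible, adjusted p = 0.426). Neither passed after adjustment.

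Codon by codon, the strains differed at few GFP positions. Relative occupancy was fitted for the 468 codons of the reporter with a mean of at least 0.1, of which 193 lie in GFP (limma, log2 of occupancy + 0.1, adjusted p of at most 0.05). Deletion of *SLH1* called 51.1% of all codons tested, 50.2% as higher and 0.855% as lower, and among the GFP codons 5 were higher and 4 lower. The median log2 difference was 0.03 over the GFP codons and 0.54 over all codons, and since each library was scaled to its own GFP mean, a value near 0 in GFP follows from the scale. Deletion of *DOM34* called 18.4% of all codons (18.2% higher, 0.214% lower) and 4 GFP codons higher and 1 lower, with medians of 0.14 in GFP and 0.44 over all. Deletion of *CUE2* called 6.62% of all codons and deletion of *HEL2* 22.9%, and each called 0 GFP codons (10 and 8 at an unadjusted p under 0.05, and 0 with edgeR and with DESeq2). For *SLH1* and *DOM34*, 20 and 21 of the 193 GFP codons had an unadjusted p under 0.05. The adjustment ran over all 468 codons, and most codons called for these deletions lay outside GFP. The adjusted p therefore does not limit the share of false calls among the GFP codons alone.

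Of the called codons, those toward the 3′ end of the region were higher without *SLH1*: codons 170, 180, 187 and 190. Codon 170, AAC for asparagine, stood at 0.582 in *ski2Δ* and at 0.609 and 1.89 in *slh1Δ ski2Δ*. It was 0.805 and 0.935 in *dom34Δ ski2Δ* against 1.05 and 2.29 with *SLH1* deleted, 1.01 and 0.781 in *cue2Δ dom34Δ ski2Δ* against 1.75 and 1.79, and 0.883 and 0.651 in *hel2Δ dom34Δ ski2Δ* against 2.35 and 1.88. In all 4 backgrounds the groups did not overlap, though in *ski2Δ* by a small margin, and the log2 difference was 0.96 ± 0.24 (SE, limma adjusted p = 0.00189). Codon 187, CCA for proline, had a difference of 0.78 ± 0.26 (adjusted p = 0.0181), codon 190, GAT for aspartate, one of 0.61 ± 0.19 (adjusted p = 0.0135) and codon 180, GAC for aspartate, one of 0.58 ± 0.20 (adjusted p = 0.0202).

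Codon 80, the CGG marked above, was lower without *SLH1*, by a log2 difference of -0.64 ± 0.20 (limma adjusted p = 0.0128). It stood at 2.99 in *ski2Δ* against 2.60 and 1.94, at 2.20 and 1.72 in *dom34Δ ski2Δ* against 2.14 and 1.21, at 2.17 and 1.15 in *cue2Δ dom34Δ ski2Δ* against 0.874 and 1.24, and at 2.06 and 2.65 in *hel2Δ dom34Δ ski2Δ* against 0.784 and 0.951. The groups overlapped in the *dom34Δ ski2Δ* and *cue2Δ dom34Δ ski2Δ* backgrounds. The other lower codons, 54, 74 and 90, and the other higher one, 32, differed by 0.56 or less in size.

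Deletion of *DOM34* gave its largest GFP difference at codon 4, 2.20 ± 0.57 on the log2 scale (limma adjusted p = 0.0105). In the sum of both sizes this codon stood at 0.0915 in *ski2Δ* and 0.104 and 0.412 in *slh1Δ ski2Δ*, against 1.85 and 0.754 in *dom34Δ ski2Δ* and 1.66 and 0.478 in *slh1Δ dom34Δ ski2Δ*. The libraries did not overlap in either background, though in *slh1Δ ski2Δ* by a small margin (0.412 against 0.478). In rpm of 28 nt RPFs they overlapped there (3.11 against 2.37). In the strains outside this comparison, which also lacked *DOM34*, codon 4 ranged from 0 to 1.57. Without the single *ski2Δ* library the difference was 1.64 with an adjusted p = 0.147, and without the first-table library of *dom34Δ ski2Δ* or of *slh1Δ dom34Δ ski2Δ* it was 1.90 and 1.80 with an adjusted p = 0.0503 and 0.0602. Codons 187 and 190 were also higher (1.33 ± 0.39, adjusted p = 0.0228, and 1.11 ± 0.29, adjusted p = 0.0105), as was codon 27, TTT for phenylalanine (1.04 ± 0.35, adjusted p = 0.0469), and codon 54, the CCT of the second 28 nt peak, was lower (-0.85 ± 0.25, adjusted p = 0.0229). Codon 54 stood at 6.88 in *ski2Δ*, the highest of all libraries, and without that library its difference was -0.49 with an adjusted p = 0.363.

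These counts moved with single libraries. The 9 GFP codons called for *SLH1* became 3 without the second-table library of *slh1Δ dom34Δ ski2Δ*, 4 without the first-table library of *dom34Δ ski2Δ*, 5 without the first-table library of *cue2Δ dom34Δ ski2Δ*, 15 without the first-table library of *slh1Δ ski2Δ* and 26 without the unnumbered library of *cue2Δ slh1Δ dom34Δ ski2Δ*. Codons 170, 190 and 80 passed with any 1 library left out. The 5 called for *DOM34* ranged from 1 without the first-table library of *dom34Δ ski2Δ* to 13 without either library of *cue2Δ slh1Δ dom34Δ ski2Δ*, a strain that is not part of that comparison but shares its estimate of the spread. Scaled to the median codon instead, *SLH1* deletion called 4 GFP codons higher and 10 lower, and on log2 of rpm + 1, which changes both scale and pseudocount, 42, all lower, with the median GFP codon at -0.30.

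The 16 nt RPFs, which the paper assigns to ribosomes at truncated mRNA ends, were sparse over GFP. Whether the short reads on GFP have that origin was not tested. They summed to 20.8 rpm in the lowest of 14 libraries, 56.0 rpm in the median and 99.0 rpm in the highest, on between 74 and 1362 reads, and amounted to 1.41 to 7.12 per 100 of the 21 and 28 nt RPFs. In *slh1Δ dom34Δ ski2Δ* they were 59.2 and 62.3 rpm, or 6.54 and 6.43 per 100, against 53.4 and 36.1 rpm, or 3.25 and 2.34 per 100, in *dom34Δ ski2Δ*. The strain's 16 nt RPFs in GFP were only 1.14% and 1.16% of all those on its reporter, whereas they were 7.75% and 5.35% in *dom34Δ ski2Δ* and 30.6% in *ski2Δ*.

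The ratio of 16 nt to other RPFs differed between libraries of a strain nearly as much as between strains. It was 5.06 and 1.41 per 100 in *slh1Δ ski2Δ*, 4.22 and 1.46 in *cue2Δ dom34Δ ski2Δ*, 3.81 and 7.12 in *hel2Δ dom34Δ ski2Δ* and 4.03 and 1.90 in *hel2Δ slh1Δ dom34Δ ski2Δ*. None of the 4 deletions passed, with mean log2 differences of 0.18 for *SLH1*, 0.27 for *DOM34*, -0.19 for *CUE2* and -0.15 for *HEL2* (exact permutation tests, adjusted p of 0.889 to 0.928). Deletion of *SLH1* came with higher ratios and no overlap in *dom34Δ ski2Δ* (1.22, with 1.01 and 1.44 within the tables) and in *cue2Δ dom34Δ ski2Δ* (1.15, against a single library), and with overlapping ones in the other 2 backgrounds. Deletion of *DOM34* came with lower ratios in *ski2Δ* (-0.71, against its single library) and higher ones in *slh1Δ ski2Δ* (1.26), with no overlap in either.

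Where the 16 nt RPFs ended is shown for 3 of the sites named below, with the 3′-terminal nt of the RPF in capitals and the following 12 nt in lower case after it.
Site at nt 200 (nt 185 to 212): ctactctgacgtatgGtgttcaatgctt
Site at nt 511 (nt 496 to 523): aaaattcgccacaacAttgaagatggat
Site at nt 526 (nt 511 to 538): attgaagatggatccGttcaactagcag

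In *dom34Δ ski2Δ* the most frequent ends were nt 200, in codon 67 of the chromophore (1.98 and 1.32 rpm), nt 316 (2.31 and 0.550 rpm), nt 269 (1.57 and 1.10 rpm), nt 526 (1.40 and 0.770 rpm) and nt 202 (1.32 and 0.220 rpm). In *slh1Δ dom34Δ ski2Δ* they were nt 526, in codon 176 for valine (4.12 and 3.20 rpm), nt 511, in codon 171 for isoleucine (1.66 and 2.06 rpm), nt 280 (1.82 and 1.55 rpm), nt 200 (1.66 and 0.825 rpm) and nt 316 (1.35 and 1.13 rpm). The other 12 libraries held at most 1.69 rpm at nt 526 and 1.36 rpm at nt 511. The *ski2Δ* library had its highest end at nt 269, with 5.74 rpm.

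**Figure D4:**
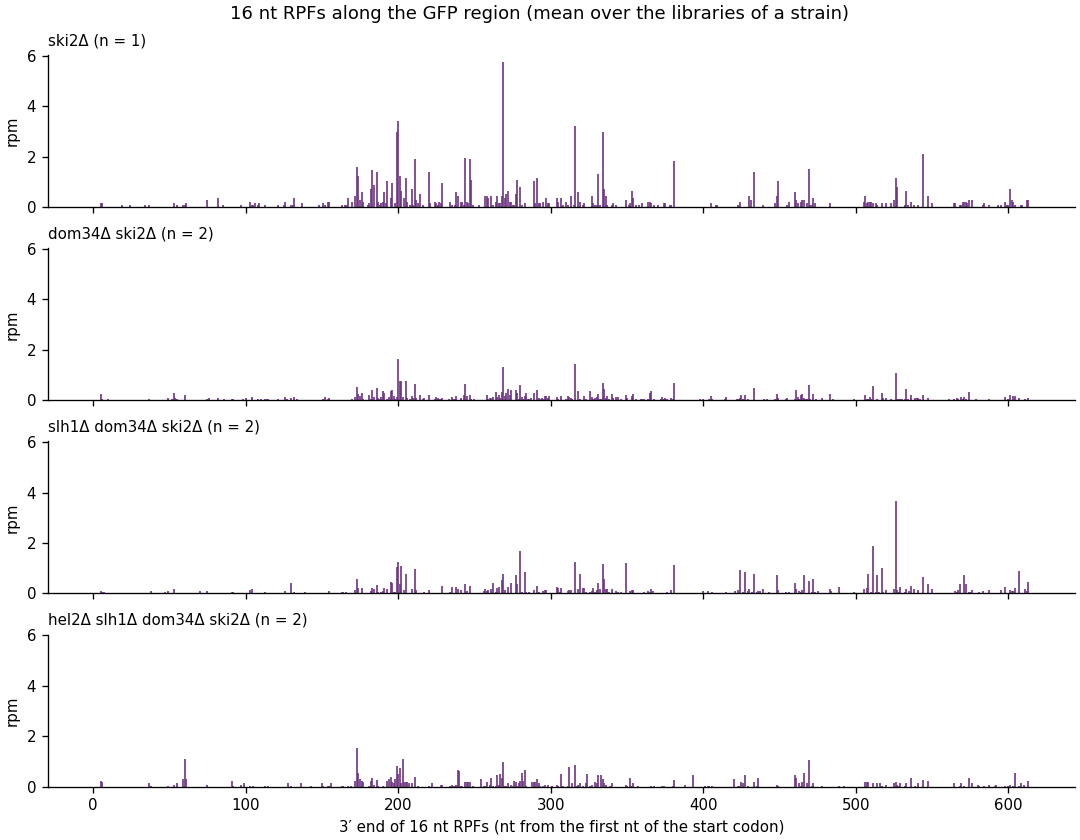
16 nt RPFs along GFP in rpm per nt, as means of 4 strains, against the distance of the 3′ end from the first nt of the start codon. In *slh1Δ dom34Δ ski2Δ* the tallest position is nt 526 (3.66 rpm), and in *dom34Δ ski2Δ* it is nt 200 (1.65 rpm).

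The 16 nt RPFs of *slh1Δ dom34Δ ski2Δ* stood apart in position and frame. At nt 410 to 613, the end of the region, they came to 23.7 and 26.9 rpm, or 10.7 and 9.61 per 100 of the 21 and 28 nt RPFs there, against 13.6 and 8.35 rpm, or 3.94 and 2.29 per 100, in *dom34Δ ski2Δ*. Among the other strains the second-table library of *hel2Δ dom34Δ ski2Δ* had 21.3 rpm and 9.58 per 100, and the *ski2Δ* library 21.7 rpm and 4.69 per 100. At the first position of a codon ended 67.1% and 68.4% of them, whereas the other 12 libraries lay between 25.7% and 60.1%. These were values seen in the data and were not tested.

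Tested by 3 nt windows in frame, 32 of the 130 windows whose mean reached 0.5 rpm were in GFP (limma, log2 of rpm + 0.1). As for the codons, the adjustment ran over all 130 windows, so it does not limit false calls among GFP windows alone. The comparison of *slh1Δ dom34Δ ski2Δ* with *dom34Δ ski2Δ* called 58.5% of all windows and 0 in GFP (0 at an unadjusted p under 0.05, and 0 with edgeR). There the window at nt 526 to 528 (w526 slh1dom34ski2-dom34ski2) had a difference of 1.66 ± 0.91 with an adjusted p = 0.145. *dom34Δ ski2Δ* against *ski2Δ* and *cue2Δ dom34Δ ski2Δ* against *dom34Δ ski2Δ* each called 8.46% of all windows, and *hel2Δ dom34Δ ski2Δ* against *dom34Δ ski2Δ* 1.54%, with 0 in GFP in all 3 comparisons (2, 0 and 0 at an unadjusted p under 0.05, and 0 with edgeR).

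Deletion of *HEL2* in *slh1Δ dom34Δ ski2Δ* called 53.1% of all windows and 2 in GFP, both lower and both at the sites shown above. At nt 526 to 528, *slh1Δ dom34Δ ski2Δ* had 4.19 and 3.51 rpm (87 reads) and *hel2Δ slh1Δ dom34Δ ski2Δ* 0 and 0.596 rpm (7 reads). The log2 difference was -3.90 ± 0.91 (adjusted p = 0.00197), and over pooled reads the former was 8.30-fold higher (95% exact interval 3.86 to 21.3, counting error only). At nt 511 to 513 the values were 1.66 and 2.17 rpm (42 reads) against 0 and 0.256 rpm (3 reads), with a pooled ratio of 9.35 (2.99 to 47.2). That window reached the minimum of 0.5 rpm only with the *slh1Δ dom34Δ ski2Δ* libraries included (0.464 rpm over the other 12), so its call was favoured by the filter and is not used as support. Both libraries of *slh1Δ dom34Δ ski2Δ* were above both of the other strain at both sites, which for nt 511 is likewise not used as support. Without the library of 3179018 reads, which held 0 reads at both, the log2 difference at nt 526 was -2.50, and the window at nt 511 no longer passed (adjusted p = 0.0753).

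Deletion of *CUE2* in *slh1Δ dom34Δ ski2Δ* called 59.2% of all windows and 11 in GFP, 2 higher and 9 lower. This comparison rested on 1 library of 1261876 reads, in which 3 reads are worth 2.38 rpm, and that library is assumed to vary like the others. At nt 526 to 528 it held 0 reads, against a mean of 3.85 rpm in *slh1Δ dom34Δ ski2Δ*. By the lower limit of the exact interval over pooled reads, *slh1Δ dom34Δ ski2Δ* was at least 1.30-fold higher, counting error only. At nt 511, 280 and 316 that library also held 0 reads, but the mean of *slh1Δ dom34Δ ski2Δ* there was below 2.38 rpm and no fold is given. The window at nt 58 to 60 had 5 reads against 1, and reached the minimum of 0.5 rpm only through that library (0.314 rpm over the other 13), as the window at nt 511 did through *slh1Δ dom34Δ ski2Δ*. The other 9 called windows reached it without the strain where they were higher. With edgeR on the recovered reads, 2 GFP windows were called, both higher, and without either *slh1Δ dom34Δ ski2Δ* library limma called 7 or 4.

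Collided ribosomes were rare over GFP. The *dom34Δ ski2Δ* disome library (279879 reads) had the A site of 203 leading ribosomes there, 1.11% of the 18352 on the reporter (95% Wilson interval 0.965 to 1.27), and the *slh1Δ dom34Δ ski2Δ* disome library (457397 reads) 217, or 0.643% of 33740 (0.563 to 0.734). In 46 nt disome RPFs, in which the leading ribosome is at a truncated end, GFP held 39 of 2339 (1.67%) and 92 of 19122 (0.481%). As levels these were 139 and 201 rpm, so the level and the share ran in opposite directions, and the shares also move with the RPFs at the stall. For the leading A sites the levels were 725 and 474 rpm. With 1 library for each strain these values compare libraries and not strains, and there is no test.

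Along GFP, the leading ribosomes of disomes in *dom34Δ ski2Δ* were mostly at codons 51 to 100, which held 49.8% (42.9 to 56.6) of them, with 16.7% (12.2 to 22.5) at codons 151 to 204. In *slh1Δ dom34Δ ski2Δ* these shares were 39.4% (33.1 to 46) and 30.1% (24.4 to 36.5). The former stretch is also where the 21 nt monosome RPFs were concentrated. The share of 46 nt RPFs at codons 151 to 204 was 15.4% (7.25 to 29.7) and 41.3% (31.8 to 51.5). These intervals cover counting error only, and the libraries are 1 per strain.

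Single codons held few disomes, and their reading frame was not resolved. The in-frame share of leading A sites was 38.42% (32.01 to 45.27) in *dom34Δ ski2Δ* and 37.96% (31.75 to 44.59) in *slh1Δ dom34Δ ski2Δ*. Both Wilson intervals include the share of an even spread over codon positions, so the codons named here are approximate. In *dom34Δ ski2Δ* the leading A site was found 10 times at codon 81 (TAT), 9 times at codon 80 (CGG) and at codon 84 (TTC), and 7 times at codons 68 (GTT) and 85 (AAG), so that 4 of the 5 lie within the third stretch shown above. In *slh1Δ dom34Δ ski2Δ* it was found 10 times at codon 64 (CTG), the highest 21 nt codon of the monosomes, 10 times at codon 203 (ACA), 7 times at codon 109 (CGT), 6 times at codon 204 (CAA) and 5 times at codon 63 (ACT). The 95% Wilson interval of 10 of 203 is 2.70% to 8.83%, and most of these codons cannot be ordered.

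**Figure D5:**
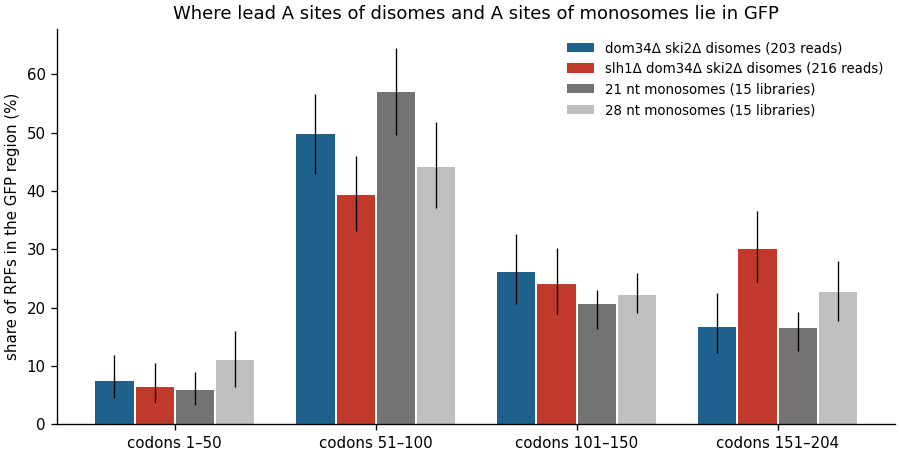
Share of RPFs in 4 stretches of GFP in percent, for the leading A sites of disomes in 1 library of *dom34Δ ski2Δ* (203 reads) and 1 of *slh1Δ dom34Δ ski2Δ* (216 reads in complete codons, error bars 95% Wilson intervals) and for 21 and 28 nt monosome RPFs (means and range of 15 libraries). Codons 51 to 100 hold the largest share of each, from 39.4% to 57%, and the disome shares at codons 151 to 204 are 16.7% and 30.1%.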

How the data were processed

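GFP was read from the RPFs of 15 monosome libraries (8 strains, gel cut 15 to 34 nt) and 2 disome libraries (40 to 80 nt). The authors trimmed adapters (skewer), discarded ribosomal and other non-coding RNA, kept reads that STAR placed once in the R64-1-1 genome with the reporter added, and deposited rpm, reads scaled to the library's total, for each nt of the reporter. The submitters' notes also name CASAVA 1.8. 16 nt RPFs (15 to 17 nt) and 46 nt disome RPFs (44 to 48 nt) are placed by their 3′ end. 21 nt (20 to 22 nt) and 28 nt RPFs (27 to 32 nt) are placed by the A site, 16 or 17 nt from the 5′ end, and disome RPFs of 54 and 60 nt by the leading A site, 47 nt from the 5′ end. Such fixed distances can move a peak by a codon, and keeping reads placed once removes short reads with a second match.

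Whole reads were recovered from the steps between values: 100% of values came out whole (tolerance 0.1 reads), which also gave each library's depth. The sequence was that of the tables, in which 250 empty rows were dropped. The columns of *cue2Δ slh1Δ dom34Δ ski2Δ* in the second table carry the replicate number of the strain's other library and were used as a library with no number, for 21 and 28 nt RPFs only. The second library of *slh1Δ dom34Δ ski2Δ* is labelled 40 to 80 nt and was used as a monosome library. Of 57 value columns 7 were not used, 3 of them from trisomes. In the 7 strains with replicates, chi-square per degree of freedom between the libraries was 1.85 to 7.48, above sampling noise.

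6 measures per library were compared for 4 deletions with two-sided exact permutation tests within backgrounds. They were the log2 GFP total, the 21 to 28 nt ratio, early codons over the rest, codons 141 to 204 over 11 to 75 (the gradient), the percentage of 28 nt RPFs in frame (the frame), and 16 nt RPFs (+ 1 rpm) over the total. Codons and 16 nt windows were fitted over the whole reporter with limma 3.58.1 in R 4.3.3 (1 coefficient per strain, trend, pseudocount 0.1, minimum mean 0.1 for occupancy and 0.5 rpm for windows, Benjamini-Hochberg threshold 0.05). edgeR 4.0.16 and DESeq2 1.42.0 on the recovered reads were alternatives, with other pseudocounts, filters, scalings and stretches, 1 read size, the deposited table as a block, and each library left out. At the threshold edgeR called 12 and 17 GFP codons for *SLH1* and *DOM34*, DESeq2 9 and 17. In simulated reads with codons changed by 1 or 2 on the log2 scale for *SLH1*, limma called 39 and 60 of 60. With windows changed by 2 or 4 between *slh1Δ dom34Δ ski2Δ* and *dom34Δ ski2Δ* it called 19 and 30 of 30. The simulated spread between libraries was fixed in advance and not taken from these libraries. Most changed codons lay outside GFP, and the windows were drawn from the whole reporter. These rates therefore do not give the power within GFP.

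The codons named are codons 1 to 10, the 5 highest in each RPF size, the 5 lowest, the 5 with the largest change among those called, the 5 highest 16 nt positions in *dom34Δ ski2Δ* and *slh1Δ dom34Δ ski2Δ*, the 5 with most disomes, and the 3 highest and lowest kinds of codon with at least 3 sites. Codons 17 and 19 and the other called codons listed were named after their values were seen. The region, lists and tests were chosen with earlier results of these data known.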

Additional observations from a re-analysis of the deposited data

Results flagged for a closer look

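The GFP total differed with a deletion in opposite directions in different backgrounds. The libraries compared did not overlap, but no test of these differences passed after adjustment. The log2 effect of *SLH1* deletion in *hel2Δ dom34Δ ski2Δ* exceeded that in *ski2Δ* by 1.21, that in *dom34Δ ski2Δ* by 1.30 and that in *cue2Δ dom34Δ ski2Δ* by 1.35. Each had an exact permutation p of 0.0556, the smallest possible here, and an adjusted p = 0.333 over 18 such comparisons. All share the libraries of *hel2Δ dom34Δ ski2Δ* and *hel2Δ slh1Δ dom34Δ ski2Δ*, so they are not independent. The middle value is also the difference, 1.30, between the effects of *HEL2* deletion in *slh1Δ dom34Δ ski2Δ* and in *dom34Δ ski2Δ*, since both rest on the same 4 strains.

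At codons 1 to 10, *SLH1* deletion came with higher occupancy in *ski2Δ* (0.60 on the log2 scale, against 1 library) and lower occupancy in *hel2Δ dom34Δ ski2Δ* (-2.89). These effects differed by -3.49 (exact permutation p = 0.111, adjusted p = 0.40).

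The 16 nt RPFs per ribosome on GFP were higher with *HEL2* deleted in *dom34Δ ski2Δ* (0.91 on the log2 scale, with 0.24 and 1.59 within the tables) and lower with it deleted in *slh1Δ dom34Δ ski2Δ* (-1.22, with -0.69 and -1.74 within the tables). These effects differed by -2.13 (exact permutation p = 0.111, adjusted p = 0.40). The effects of *DOM34* deletion on the same ratio, -0.71 in *ski2Δ* and 1.26 in *slh1Δ ski2Δ*, differed by 1.97, and that difference was not tested.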

How the results depend on the processing

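None of the 24 comparisons of the 6 measures passed an adjusted p of 0.05 under any alternative (lowest 0.111, for the gradient with *SLH1* deletion), in a design where most of them could not reach it. Of 110 values under alternatives other than single libraries left out, 97 kept their direction. With 21 nt RPFs alone the difference turned to -0.10 for the GFP total with *HEL2* deletion, -0.47 for the early codons with *DOM34* deletion and -0.11 for the gradient with *HEL2* deletion, and with 28 nt RPFs alone to 0.0153 for the gradient with *CUE2* deletion. In the frame of 21 nt RPFs that of *SLH1* deletion turned to 2.58 percentage points. Without division by the total, the 16 nt differences turned to -0.27 for *SLH1*, -0.21 for *DOM34* and 0.0464 for *CUE2*. An alternative chosen after seeing the data left out the 2 shallowest libraries and turned the 21 to 28 nt ratio for *CUE2* to -0.00972, the frame to 1.81, 1.54 and 2.24 percentage points for *SLH1*, *CUE2* and *HEL2*, and the 16 nt difference for *SLH1* to -0.32. The cause of these turns was not tested. The early codons could not be computed from 21 nt RPFs for the library of 1261876 reads.

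With single libraries left out, 209 of 226 values kept their direction. The ranges of those that did not all do so were -0.57 to 0.19 (16 nt, *CUE2*), -0.18 to 1.26 (16 nt, *DOM34*), -0.42 to 0.12 (16 nt, *HEL2*), -0.14 to 0.49 (16 nt, *SLH1*), -0.0308 to 0.0940 (21 to 28 nt ratio, *CUE2*), -0.45 to 0.0442 (the same, *DOM34*), -0.0852 to 0.21 (GFP total, *HEL2*), -7.18 to 1.54 (frame, *CUE2*), -6.84 to 2.24 (frame, *HEL2*), -0.17 to 0.0603 (gradient, *CUE2*) and -0.0742 to 0.15 (gradient, *HEL2*). Counts of called GFP codons ranged from 3 to 26 (*SLH1*), 1 to 13 (*DOM34*), 0 to 17 (*CUE2*) and 0 to 6 (*HEL2*), the highest of the latter pair without the unnumbered library of *cue2Δ slh1Δ dom34Δ ski2Δ* and the second-table library of *hel2Δ slh1Δ dom34Δ ski2Δ*. Counts of called windows ranged from 0 to 1 (*cue2Δ dom34Δ ski2Δ* against *dom34Δ ski2Δ*), 4 to 15 (*CUE2* deletion in *slh1Δ dom34Δ ski2Δ*) and 1 to 5 (*HEL2* deletion there).

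For *SLH1* the 9 codons became 42 on log2 of rpm + 1, which changes scale and pseudocount together, and 14 with median scaling, and for *DOM34* the 5 became 17 with edgeR, 17 with DESeq2 and 15 without both shallow libraries. Without a filter on low windows the 16 nt counts were 19 and 6 for *CUE2* and *HEL2* deletion in *slh1Δ dom34Δ ski2Δ*, 4 for *SLH1* deletion and 1 for *HEL2* deletion in *dom34Δ ski2Δ*. With a pseudocount of 1 rpm they were 1 for *DOM34* deletion and 2 for *SLH1* deletion in *dom34Δ ski2Δ*, with edgeR 2 for *CUE2* deletion in *slh1Δ dom34Δ ski2Δ*, and without both shallow libraries 1 for *HEL2* deletion there. Named codons and windows did not change sign in any of these fits and missed the threshold in 34 of 243 with a library left out and 22 of 120 others.

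Libraries of different strains share only a deposited table, and those of *cue2Δ slh1Δ dom34Δ ski2Δ* share no replicate number with the others. Their deviations correlated by -0.09 to 0.46 over 8 pairs of strains. With the deposited table as a block no measure changed direction. The GFP codons called were then 8 for *SLH1* and 7 for *DOM34*, and the windows 17 in place of 11 for *CUE2* deletion in *slh1Δ dom34Δ ski2Δ*. Depth limits the 16 nt positions: the shallowest library had 74 reads of 16 nt in GFP.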

Other observations

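The region holds 1 CGG codon, codon 80, which like the CGA codons of the stall encodes arginine. It stood at 5.49 ± 2.0 (SD, n = 15) of the average codon in 21 nt RPFs and at 0.325 ± 0.233 in 28 nt RPFs. The 3 CGT codons averaged 0.538 and 0.425. The single tryptophan codon, codon 57, was at 5.49 in 21 nt RPFs and 1.44 in 28 nt RPFs. These values were picked after they were seen, and no difference between kinds of codon was tested.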
